A study of Mus musculus with 4 samples.

Results

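The windows described here are stretches of 100 bp of the mouse genome that are dense in CpG and were recovered by methylated DNA immunoprecipitation (MeDIP) from thymic natural killer T (NKT) cells. They were chosen by a CpG factor (the number of CpG dinucleotides in the window) of at least 10 and by fewer than 60 reads summed over both input libraries, which left 1699 of 1048575 listed windows (0.162%). The study made 1 MeDIP library and 1 input library (sonicated DNA with no pull-down) from PLZFon mice, and 1 MeDIP and 1 input library from wild-type (WT) mice. All cells were CD1-tetramer positive NKT cells sorted fresh from thymus, all mice were C57BL/6, and the PLZFon allele, the number of animals and their age are not described in the labels. Zbtb16 encodes PLZF, which programs the innate-like effector state of NKT cells, and the series title asks how acetylation levels of PLZF act on the differentiation of these cells. The titles set the groups used here. A further label conflicts with them, because it gives no antibody for the PLZFon MeDIP library and an anti-5-methylcytosine antibody for the WT input. DNA methylation reads do not measure which cell types a sort held, so the NKT label could not be checked against expressed markers.

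In mammals most CpG cytosines are methylated, while the CpG-dense stretches at the promoters of active and housekeeping genes usually are not. The known exceptions in normal somatic cells include the differentially methylated regions of imprinted genes, where 1 parental allele is methylated, promoters of genes used only in germ cells, and young retrotransposons. The antibody of MeDIP binds methylated cytosine in single-stranded DNA, so that recovery depends on both the methylation and the number of CpG in a fragment, and it reports an average over all cells and both alleles.

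The libraries held 10635946 reads in PLZFon MeDIP, 15143451 in WT MeDIP, 50365402 in PLZFon input and 60689327 in WT input, as recovered from the deposited values. With 1 library in each group there were no replicates. Genotypes were therefore not tested, each ratio compares 1 library with another, and the exact 95% intervals given below stand for counting error alone. The table ran over chromosomes 1 to 6 and chromosome 7 up to position 139972600 (mm10), and the MeDIP libraries together had 10 reads or more in each listed window. A listed window was thus already one with MeDIP reads, which raises MeDIP over input for every class of window named below.

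The CpG density of the windows can be read from their sequence where they fall inside annotated promoters. Of the 1699 windows, 13 lay wholly inside a promoter sequence of RefSeq (GRCm38.p6, 250 bases before to 50 bases after an annotated start). The following 9 of them, at 8 genes, are shown 5′ to 3′ on the strand of the gene, with each CpG in capitals, because they are dense promoter windows that MeDIP did recover.
Fkbp6, chr5:135349901-135350000, minus strand: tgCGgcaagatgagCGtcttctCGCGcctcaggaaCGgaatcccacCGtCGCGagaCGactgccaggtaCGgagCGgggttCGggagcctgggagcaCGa
Fkbp6, chr5:135350001-135350100, minus strand: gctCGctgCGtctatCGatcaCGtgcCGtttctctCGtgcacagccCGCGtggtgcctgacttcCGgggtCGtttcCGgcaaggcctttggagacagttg
Sycp1, chr3:102936101-102936200, minus strand: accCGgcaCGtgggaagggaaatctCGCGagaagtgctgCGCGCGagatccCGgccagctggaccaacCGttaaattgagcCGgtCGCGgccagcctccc
Hoxa5, chr6:52204601-52204700, minus strand: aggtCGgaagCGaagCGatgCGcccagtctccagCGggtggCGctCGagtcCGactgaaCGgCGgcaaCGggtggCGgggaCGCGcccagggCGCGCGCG
Gm33061, chr2:93580401-93580500, plus strand: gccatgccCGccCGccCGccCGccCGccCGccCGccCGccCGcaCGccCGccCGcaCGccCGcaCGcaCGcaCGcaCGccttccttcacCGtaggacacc
Dnajb3, chr1:88205701-88205800, minus strand: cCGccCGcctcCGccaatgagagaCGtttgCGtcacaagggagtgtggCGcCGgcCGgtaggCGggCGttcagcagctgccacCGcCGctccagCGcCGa
Fam178b, chr1:36683201-36683300, minus strand: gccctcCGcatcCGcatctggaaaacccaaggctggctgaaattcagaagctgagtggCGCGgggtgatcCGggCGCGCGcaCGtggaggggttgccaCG
Gm15050, chr6:52172701-52172800, plus strand: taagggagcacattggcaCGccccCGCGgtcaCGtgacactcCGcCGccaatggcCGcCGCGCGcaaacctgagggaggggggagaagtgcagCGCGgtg
Gm32942, chr6:34536901-34537000, minus strand: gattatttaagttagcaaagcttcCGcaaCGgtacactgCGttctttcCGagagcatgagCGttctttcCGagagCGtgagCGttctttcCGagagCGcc

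Fkbp6 and Sycp1 act in meiosis, Sycp1 as a protein of the synaptonemal complex, and Hoxa5 is a homeobox transcription factor gene of axial patterning. Hoxa5 had 18 CpG and Gm33061 had 19, which in Gm33061 stand in a nearly regular repeat. The factor of Gm32942 is 11, while 10 CpG are visible, because a further CpG crosses the edge of the window at the first base shown.

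For contrast, 2 promoter windows of housekeeping genes with as many CpG are shown in the same way. They are at Psmc4, a subunit of the proteasome, and Gpi1, an enzyme of glycolysis, and neither was listed.
Psmc4, chr7:28050201-28050300, minus strand: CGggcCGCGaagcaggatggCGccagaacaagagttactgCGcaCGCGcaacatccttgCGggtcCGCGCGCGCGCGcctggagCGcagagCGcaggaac
Gpi1, chr7:34230301-34230400, minus strand: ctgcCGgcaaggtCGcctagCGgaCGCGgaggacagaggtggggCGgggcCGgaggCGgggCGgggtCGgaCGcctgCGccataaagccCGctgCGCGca

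Dense promoter windows were seldom listed. RefSeq gave 15055 promoter sequences of 12353 genes in the range of the table, and 28189 windows lay wholly inside them. Of the 3989 promoter windows with at least 10 CpG, 13 (0.326%, 0.174 to 0.557) were listed, against 2518 of 17784 (14.2%, 13.6 to 14.7) with 1 to 9 CpG. The share was highest at 3 CpG, where 522 of 2203 windows (23.7%) were listed, and it was 0.197% (3 of 1524) at 14 CpG or more. All 13 listed dense windows also met the input limit. Housekeeping genes had 7 such dense windows in 6 genes, and 0 of the 7 were listed. An approximate upper bound, 3 over the number of windows, allows a share of up to 42.9%. It is not an exact interval like those above.

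**Figure D1:**
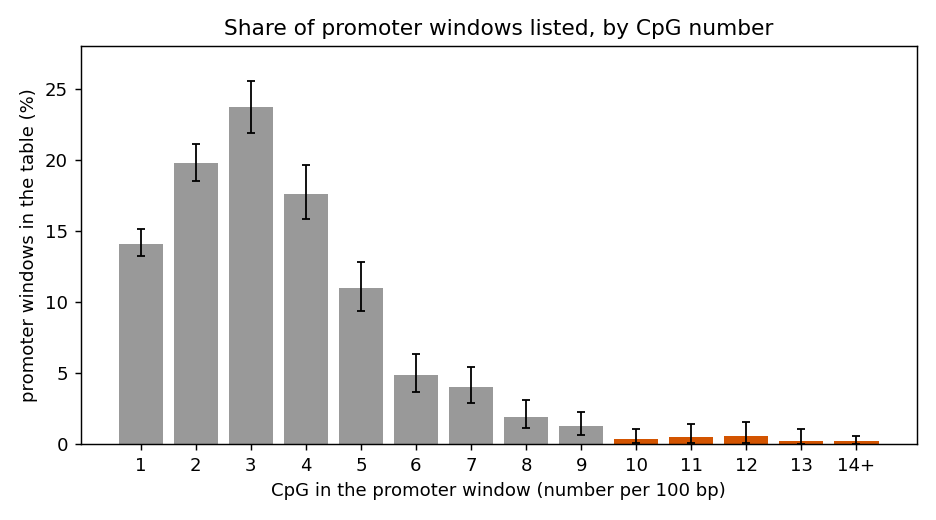
Share of promoter windows of 100 bp that were listed (y axis, percent) by the number of CpG in the window (x axis), with exact 95% binomial intervals as bars. The orange bars, for windows with 10 CpG or more, stand at 0.197% to 0.545%, below the 23.7% at 3 CpG.

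The 13 promoter windows had few reads. Gm32942 had 24 PLZFon and 42 WT MeDIP reads on 8 PLZFon and 13 WT input reads, 14.2 and 12.9 times the input after scaling to depth, the highest of the 13 in both genotypes. Hoxa5 had 13 PLZFon and 24 WT MeDIP reads on 14 and 18 input reads (4.4 and 5.34 times the input). Sycp1 had 4 PLZFon and 13 WT MeDIP reads on 14 and 21 input reads (1.35 and 2.48 times). Sycp1 thus stood well below the 8.67 times of all CpG-dense windows in WT, and its ratio of 0.438 (0.104 to 1.42) includes equality. The adjacent windows of Fkbp6 had 8 and 10 PLZFon reads and 6 and 9 WT reads, with 9 and 7 PLZFon and 11 and 11 WT input reads. Gm33061 had 12 PLZFon and 12 WT MeDIP reads on 11 and 11 input reads. Dnajb3 had 6 PLZFon and 4 WT MeDIP reads on 7 and 16 input reads (4.06 and 1.0 times), so that WT was at its input. Fam178b had 9 PLZFon and 7 WT MeDIP reads on 5 and 13 input reads (8.52 and 2.16 times). In all 13 windows the interval of the ratio between PLZFon and WT included equality.

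A set of 3 sequence motifs was searched on both strands of these windows. The E-box CACGTG (the same on both strands), a site of basic helix-loop-helix factors, was in 4 of the 13, at Fam178b, Fkbp6, Gm15050 and Sycp1, and in 5.04% of all 3989 dense promoter windows. The E2F motif GCGGGA, which on the other strand reads TCCCGC, was in 1 of the 13, at 4930467D21Rik, and in 24.9% of the dense promoter windows. The ZFP57 motif TGCCGC, which on the other strand reads GCGGCA, known for imprinted regions, was in 2 of the 13, at Fkbp6 and Hoxa5, and in 12.8%. A match is only a match of letters, and the difference between these shares was not tested.

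Among themselves the 1699 windows were mostly at the lower edge of the rule. A factor of 10 was held by 946 windows (55.7%), a factor of 11 by 405 (23.8%) and a factor of 12 by 188 (11.1%), and 87 windows had a factor of 14 to 20. They were scattered, with 1409 windows alone and 1536 separate stretches when windows within 400 bp are counted once. Chromosome 6 held the fewest (198) and chromosome 4 the most (262). Per 1000 listed windows they ranged from 1.44 on chromosome 2 to 1.82 on chromosome 3.

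Reads per window varied widely in the MeDIP libraries and less in the inputs. The PLZFon MeDIP library had 0 to 87 reads per window (median 12) and the WT MeDIP library 0 to 134 (median 18). The PLZFon input had 1 to 35 reads (median 11) and the WT input 2 to 39 (median 14). Over the 1699 windows the Spearman correlation between PLZFon and WT reads was 0.858 in MeDIP and 0.498 in the inputs, a description across windows of shared sequence and depth. Windows that were recovered strongly in one genotype were mostly recovered strongly in the other.

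**Figure D2:**
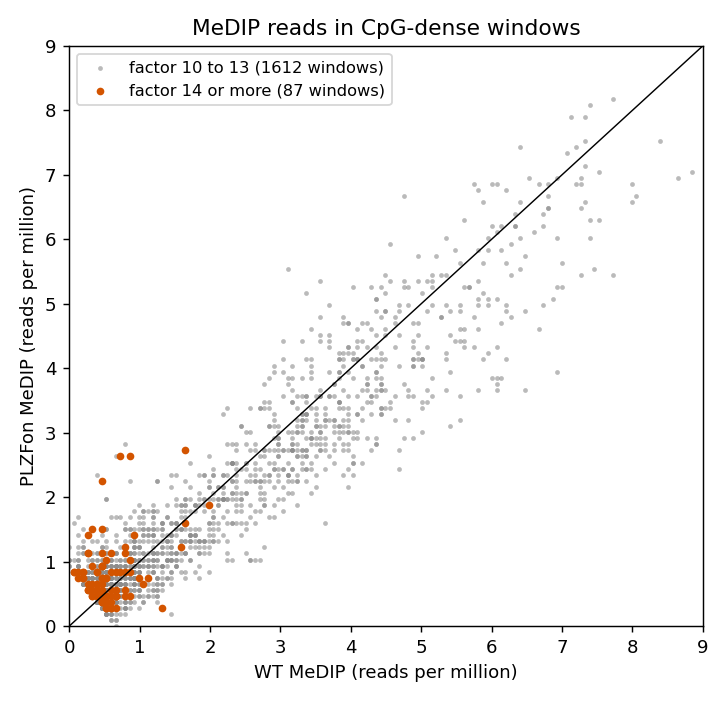
Depth-scaled MeDIP reads (reads per 1000000 library reads) of each of the 1699 windows in PLZFon (y axis) and WT (x axis), with the line of equality. Windows with a factor of 10 to 13 (grey) follow the line up to high values, and the 87 windows with a factor of 14 or more (orange) lie at low values in both libraries.

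MeDIP recovered the CpG-dense windows more strongly than other listed windows in both genotypes. Over the CpG-dense windows, MeDIP reads scaled to depth stood at 8.33 times the input in PLZFon (8.17 to 8.48) and at 8.67 times in WT (8.53 to 8.82). Over the other listed windows with the same input limit they were 4.27 times in PLZFon and 4.50 times in WT. Since listing asked for MeDIP reads and the rule for few input reads, these values do not settle the antibody label of the PLZFon MeDIP library. The values depend on the input limit, which chose the windows, and on the scaling, since TMM factors give 2.16 in PLZFon and 2.19 in WT.

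The enrichment was highest at a factor of 9 and 10 and lower in the densest windows. It was 3.64 times the input in PLZFon and 3.77 in WT at a factor of 1, and 8.82 and 9.42 at a factor of 9, just outside the rule. Just inside it, at a factor of 10, it was 8.98 in PLZFon and 9.53 in WT. From there it was lower with each step, and the gap between the genotypes closed. It was 8.10 and 8.24 at a factor of 11, 7.81 and 7.82 at 12, and 6.33 and 6.34 at 13. In the 87 windows with a factor of 14 or more it was 4.06 in PLZFon (3.66 to 4.49) and 3.16 in WT (2.86 to 3.49), about the level at a factor of 1. The authors' relative methylation score had a median of 0.41 in PLZFon and 0.45 in WT over the CpG-dense windows, against 0.57 and 0.63 over the other listed windows.

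**Figure D3:**
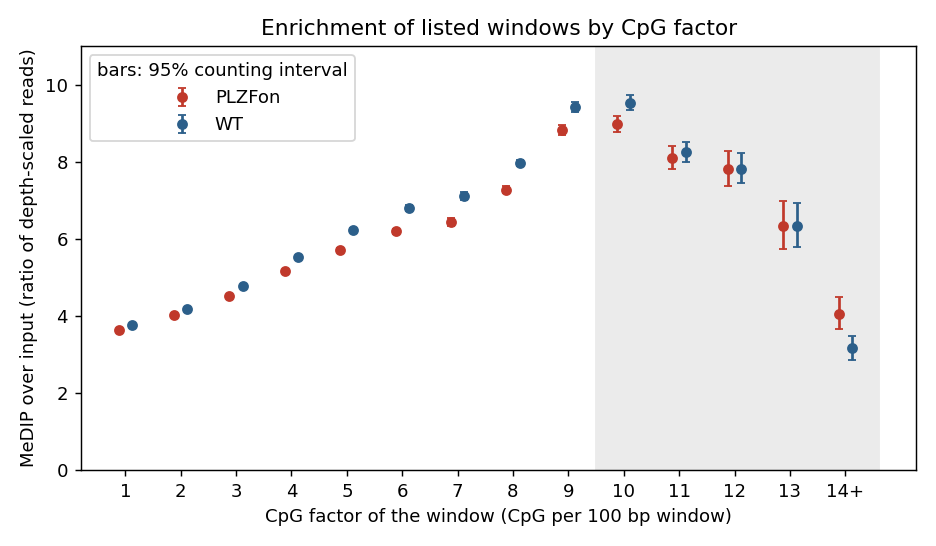
Depth-scaled MeDIP over input (y axis) by the CpG factor of the window (x axis) for PLZFon and WT, with exact 95% counting intervals; the grey area marks a factor of 10 or more. PLZFon stands at 8.98 and WT at 9.53 at a factor of 10, and they stand at 4.06 and 3.16 at 14 or more.

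The members were a mixture of strongly and weakly recovered windows. With both genotypes pooled, MeDIP over input had a median of 6.23 per window, with 10% of windows under 2.13 and 10% over 17.1, against a median of 3.83 in the other listed windows. It was at least 10 in 556 windows (32.7%), against 5.41% of the other windows, and under 5 in 714 (42.0%). Strongly and weakly recovered windows differed in position. Start sites, here and below, are those of the 12353 genes with a promoter sequence. Of the strongly recovered 556, 33.5% lay in genes and 6.12% within 5000 bp of such a start. Of the weakly recovered 714, 58.1% lay in genes and 17.9% near starts. The 10 neighbouring windows were listed in a median of 8 for the strongly and 5 for the weakly recovered windows, and a factor of 12 or more was held by 12.6% and 26.9% of them. Strongly recovered windows were thus more often far from genes. Their larger number of listed neighbours is no separate result, because neighbouring windows share reads and listing asked for MeDIP reads.

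The windows with the most reads lay far from start sites with a promoter sequence. The window at chr2:148410901-148411000, at no gene, had 75 PLZFon and 134 WT MeDIP reads on 24 and 14 input reads. Windows in Sgip1, an endocytosis protein (chr4:102882401-102882500), and in Lrrc8d, a subunit of volume-regulated anion channels (chr5:105729001-105729100), had 87 and 86 PLZFon reads and 117 and 112 WT reads. The ratios of the 5 windows with the most reads were 0.797 to 1.09 and all intervals included equality. The nearest start site with a promoter sequence was 15574 to 158620 bp away from these 5.

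The densest windows had few reads. The 4 windows with a factor of 20 had 12, 12, 8 and 8 PLZFon reads and 9, 4, 8 and 2 WT reads. One of them lay in Ush1c (chr7:46236301-46236400), the gene of the hair cell scaffold protein harmonin, with 8 PLZFon and 2 WT MeDIP reads on 12 and 14 input reads. Another, at chr2:46282101-46282200 and at no gene, had 12 PLZFon and 4 WT MeDIP reads on 35 and 24 input reads, so that the WT library lay below its input at 0.668 times. A window in Gli2, a transcription factor gene of Hedgehog signalling, had a factor of 19 with 3 PLZFon and 8 WT MeDIP reads.

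Relative to protein-coding genes the CpG-dense windows were placed farther out than other listed windows. Of the 1699, 625 (36.8%) lay in protein-coding genes, 163 (9.59%) in other genes, 62 (3.65%) within 1000 bp outside a gene and 849 (50.0%) farther away. The shares of the other listed windows were 50.5%, 8.7%, 2.65% and 38.1%. The densest windows were placed more like the other listed ones. Of the 87 windows with a factor of 14 or more, 49.4% lay in protein-coding genes and 34.5% farther from any gene. Measured from the centre of a window, start sites with a promoter sequence lay within 1000 bp of 63 windows, with 55 nearest genes. This was 3.71%, against 2.6% of the other listed windows. They lay over 20000 bp away from 1058 windows (62.3%). Promoter sequences covered 12353 genes, while 21427 genes were in range, so windows near other starts were not counted. The nearest such start to the windows in the imprinted gene Peg10 was 58043 to 58443 bp away. Exons, introns and repeats were not used here.

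Enrichment went with that position. Windows farther from genes stood at 9.15 times the input in PLZFon and 9.79 in WT, those in protein-coding genes at 7.34 and 7.23, and those within 1000 bp of a start at 4.95 and 4.98. A few windows near starts did have high values. A window 322 bp from the start of Gm39637 had 72 PLZFon and 94 WT MeDIP reads on 13 and 20 input reads, 26.2 and 18.8 times the input. A window 346 bp from the start of Eps8l1 and inside Rdh13 (chr7:4460301-4460400) had 73 PLZFon and 103 WT reads on 23 and 17 input reads, 15 and 24.3 times. D1Pas1, a germ cell RNA helicase gene, held 3 windows near its start with 13, 6 and 9 PLZFon and 15, 7 and 8 WT reads.

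The comparison of PLZFon with WT gave nearly equal depth-scaled reads over all 1699 windows. The PLZFon over WT ratio of MeDIP reads was 0.954 (0.941 to 0.968), with an input ratio of 0.994 (0.975 to 1.01), and over the other listed windows the ratios were 0.962 and 1.01. The chromosomes ranged from 0.926 on chromosome 1 to 0.994 on chromosome 7. Median-of-ratios scaling turned the ratio over the 1699 windows to 1.01 (0.991 to 1.02), and removing the input limit also gave 1.01, so its direction depends on the scaling and on the windows kept.

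The ratio differed along the CpG factor. It was 0.983 at a factor of 1, 0.908 at 7 and 0.926 at 9, just outside the rule, and 0.928 (0.912 to 0.944) at a factor of 10, just inside it. Above that it was nearer to equality. It was 0.967 at 11, 1.0 (0.96 to 1.05) at 12 and 1.06 (0.97 to 1.15) at 13. Of these classes only the densest had an interval above equality. In the 87 windows with a factor of 14 or more it was 1.42 (1.28 to 1.58). These 87 windows held 756 PLZFon and 756 WT MeDIP reads, while their input ratio was 1.11 (1.01 to 1.22). Their 21 windows with at least 20 reads gave 1.41 (1.19 to 1.66). Pull-down efficiency for DNA of high CpG content and methylation of these windows cannot be told apart with 1 library per genotype.

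**Figure D4:**
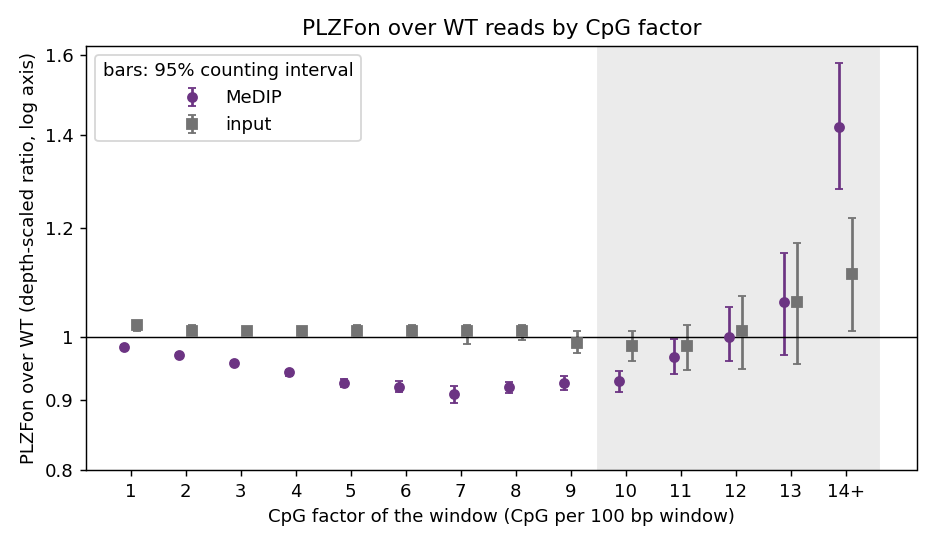
PLZFon over WT ratio of depth-scaled reads (log y axis) by the CpG factor of the window (x axis) for MeDIP and for input, with exact 95% counting intervals; the grey area marks a factor of 10 or more. The MeDIP ratio is 0.908 at a factor of 7, 1.0 at 12 and 1.42 at 14 or more, where the input ratio is 1.11.

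The ratio also differed with the enrichment of the window. The 129 windows under 2 times the input, at 1.75 in PLZFon and 1.41 in WT, had a ratio of 1.32 (1.18 to 1.47), and the 585 windows at 2 to 5 times had 1.10 (1.05 to 1.14). The windows at 5 to 10, at 10 to 20 and at 20 or more times the input had 0.929, 0.929 and 0.935. The other listed windows under 2 times the input had 0.87 (0.863 to 0.877), on the other side of equality. In these classes the weakly recovered CpG-dense windows had relatively more PLZFon reads and the strongly recovered ones relatively fewer. The classes were cut on the same MeDIP reads that form the ratio. The class under 2 times had means of 5.48 PLZFon and 5.92 WT reads, near the 10 reads that listing asked for. Low windows listed through 1 library can thus shape its ratio, and the part of the listing was not tested. By position, windows in protein-coding genes had 1.01 (0.986 to 1.04) and windows farther from genes 0.923 (0.906 to 0.94).

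At the input limit the values were as follows. The 14 windows with 50 to 59 input reads, just inside, had a ratio of 0.875 and stood at 6.43 times the input in PLZFon and 6.61 in WT. The 7 windows with 60 to 69 input reads, just outside, had 1.93 (1.31 to 2.87) and stood at 1.92 and 1.19 times the input. All 99 windows left out by the limit had 2.42 (2.2 to 2.66), with an input ratio of 1.3.

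Single windows higher in PLZFon than in WT lay in the receptor gene Pth2r, the zinc finger gene Tshz2 and the calcium sensor gene Caln1. Others lay next to Shq1. Lower windows lay in the transcription factor gene Gtf2ird1, the centrosome gene Cep85 and the sugar kinase gene Galk2. A rule of size stood in for a test. It asked for 20 or more MeDIP reads in all, a 2-fold or larger difference either way, and an interval that excludes equality. Of 1064 windows with enough reads, 19 were higher in PLZFon (1.79%), against 1.13% of all listed windows, and 14 were lower (1.32%), against 2.17%. The same rule on the inputs of the 1699 windows gave 18 higher and 22 lower of 1221. The counts are thus of the size that the inputs also give. Scaling within classes of the CpG factor turned the split to 14 higher and 20 lower.

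The higher windows were denser than the lower ones. Of 21 windows with a factor of 14 or more and enough reads, 5 were higher and 1 lower, while of 655 with a factor of 10, 7 were higher and 9 lower. The 19 higher windows formed 12 stretches, 12 windows lay in genes, and their median input ratio was 1.41. The 14 lower windows formed 14 stretches, 7 lay in genes, and their median input ratio was 0.913. The part of the input difference in the higher calls was not tested beyond windows with similar inputs, which gave 5 higher and 9 lower.

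Pth2r, which encodes a parathyroid hormone receptor, had the highest ratio of the windows that met the rule. Its window (chr1:65385201-65385300, factor 10) had 18 PLZFon and 2 WT MeDIP reads on 9 and 7 input reads, a ratio of 12.8 (3.07 to 114.0). Caln1 (chr5:130801301-130801400 and the next window) had 28 and 28 PLZFon reads and 10 and 11 WT reads, with 6 and 5 PLZFon and 3 and 4 WT input reads. Crlf2, a chain of the receptor for thymic stromal lymphopoietin (chr5:109556101-109556200), had 16 PLZFon and 8 WT reads on 12 and 7 input reads, a ratio of 2.85 (1.15 to 7.69). The Pth2r window stood at 9.47 times the input in PLZFon and 1.15 in WT, so that WT was near its input there.

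On the lower side Gtf2ird1 had the lowest ratio. Its window (chr5:134402001-134402100, factor 10) had 2 PLZFon and 22 WT MeDIP reads on 7 and 10 input reads, a ratio of 0.129 (0.0148 to 0.527). The pseudogene Rps12-ps10 (chr2:122219901-122220000, factor 14) had 3 PLZFon and 20 WT reads on 12 and 5 input reads, a ratio of 0.214 (0.0406 to 0.72), and its input ratio of 2.89 ran the other way. Single windows had 11 PLZFon and 41 WT reads in Galk2, 9 and 30 in Cep85, and 11 and 35 in Kcnip4, a potassium channel partner gene. Over both windows of Cep85 (26 PLZFon and 48 WT reads) the ratio was 0.771 (0.361 to 1.58), and over all 5 of Kcnip4 (96 and 162) it was 0.844 (0.628 to 1.13), and both intervals included equality. In Fam71a a window 566 bp from the start had 11 PLZFon and 39 WT reads on 16 and 15 input reads, a ratio of 0.402 (0.185 to 0.8). Among windows within 1000 bp of a start with a promoter sequence, only this one met the rule.

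The authors' deposited table, at an adjusted p below 0.05, called 3 of the 1699 windows higher (0.0132% of all listed windows were so called) and 0 lower (0.00124%). These were the windows of Pth2r (adjusted p 0.046 in the authors' deposited table), Tshz2 (0.046) and the zinc finger gene Zfp787 (0.0181). The Zfp787 window (chr7:6132501-6132600) had 17 PLZFon and 1 WT MeDIP read on 7 and 5 input reads, and so had too few reads for the rule of size. At an unadjusted p below 0.05 the authors' deposited table held 115 of the 1699 windows, against 3.31% of all listed windows. With 1 library per group such p-values cannot rest on a spread measured between replicates.

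Some windows had 0 reads in 1 MeDIP library. WT had 0 reads in 6 of them. These were 1 window next to Gm13691 (11 PLZFon reads), 1 next to Gm36809 (10 PLZFon reads) and 4 adjacent windows at chr4:156137101-156137500 (11, 13, 11 and 10 PLZFon reads). PLZFon had 0 reads in 1 window, in Gm10254, where WT had 10. With the library at 0 set to a floor of 3 reads, Gm13691 was at least 5.22-fold higher and Gm10254 at least 2.34-fold lower in PLZFon. All 7 windows had under 20 reads and so lie outside the rule of size. Each was listed through the other library alone, since listing asked for 10 MeDIP reads over both.

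Runs of CpG-dense windows were few and short. A run was taken as at least 3 such windows, each starting at most 200 bp after the one before. There were 25 runs with 85 windows (5.0% of the 1699), of which 17 had 3 windows, 7 had 4 and 1 had 6, over 300 to 600 bp. Runs lay within 1000 bp of 17 genes, 0.0793% of the 21427 genes in the range of the table, and 11 of the 25 lay at no gene. A read of this library type was counted in about 4 neighbouring windows, so sums over a run were divided by 4.

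The longest run lay next to Shq1, which encodes an assembly factor of small nucleolar ribonucleoproteins. Its 6 windows (chr6:100571001-100571600, factor 10 to 17) had 12, 10, 14, 10, 15 and 21 PLZFon MeDIP reads and 10, 7, 6, 5, 7 and 8 WT MeDIP reads. The summed reads over 4 were 20.5 in PLZFon and 10.8 in WT, a ratio of 2.72 (1.24 to 6.31). The inputs went the same way, with 43 PLZFon and 22 WT window reads and a ratio of 2.36 (0.773 to 8.18), so that MeDIP over input was 9.03 in PLZFon and 7.83 in WT.

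Tshz2, which encodes a teashirt family zinc finger protein, had a run where MeDIP and input went opposite ways. Its 4 windows (chr2:169944701-169945100, factor 11 to 15) had 21, 24, 25 and 28 PLZFon MeDIP reads and 8, 7, 6 and 13 WT MeDIP reads. The PLZFon input had 4, 3, 3 and 5 reads and the WT input 8, 6, 9 and 13. Each window was thus higher in PLZFon MeDIP and lower in PLZFon input. The MeDIP ratio was 4.1 (1.82 to 10.3), the input ratio 0.502 (0.107 to 1.84), and MeDIP over input 30.9 in PLZFon and 3.78 in WT.

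Of 8 runs with at least 20 reads, 2 were higher in PLZFon, Shq1 and Tshz2, and 0 lower. Among all trios of consecutive listed windows the same rule called 0.314% higher and 0.542% lower. With the mean per window in place of the divided sum, 14 runs could be read and 3 were higher, against 0.708% of trios, and 0 lower, against 1.24%. With so few runs, these shares of trios are given as background only. The run added was that of Nlrp5, a maternal effect gene of the oocyte (chr7:23427201-23427500), with 7, 18 and 24 PLZFon reads and 5, 9 and 13 WT reads on 23 PLZFon and 22 WT input reads in all. Without reference to the rule, 17 runs had a ratio above 1 and 8 below it. Of all 1699 windows, 799 (47.0%) had a ratio above 1. The run at chr4:156137101-156137500, with 0 WT reads, was listed through its PLZFon reads alone. Listing can thus shape the split of runs, and its part was not tested.

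Over all 85 windows in runs the MeDIP ratio was 1.39 (1.19 to 1.62) with an input ratio of 1.0 (0.842 to 1.19). This pooled interval leaves out the spread between runs. The run at chr4:156137101-156137500, with 0 WT reads, was listed through PLZFon alone. Listing can thus shape the pooled ratio, and its part was not tested. Single runs went from a ratio of 0.542 in Peg10 and next to Sgce to 45 PLZFon and 0 WT window reads at chr4:156137101-156137500. MeDIP over input in runs was 6.54 in PLZFon and 4.71 in WT. Outside runs the MeDIP ratio was 0.944 (0.931 to 0.958), with 8.41 times the input in PLZFon and 8.85 in WT. In both genotypes the windows in runs were thus recovered less than the others.

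Several runs with fewer reads had more PLZFon than WT reads, with WT at 0 to 3.46 times the input. In the run shared by Vps13d, a lipid transfer protein gene, and Dhrs3, a retinaldehyde reductase gene (chr4:144895701-144896100), the 4 windows had 6, 14, 16 and 13 PLZFon and 4, 3, 5 and 7 WT reads, on 38 PLZFon and 22 WT input reads in all, an input ratio of 2.08 (0.657 to 7.39). In Tnnt1, the slow muscle troponin T gene (chr7:4507901-4508200), the 3 windows had 16, 13 and 9 PLZFon and 7, 3 and 5 WT reads, on 7 PLZFon and 24 WT input reads in all. The input thus stood on the same side as MeDIP at Vps13d and Dhrs3 and on the opposite side at Tnnt1, where its ratio was 0.351 (0.0281 to 2.1), and both input intervals included equality. The run at chr4:156137101-156137500 had 45 PLZFon and 0 WT window reads on 16 and 47 input reads, at least 5.34-fold higher in PLZFon when WT is put at the floor of 3 reads. In Adad1, a testis RNA-binding protein gene, 3 windows had 26 PLZFon and 10 WT reads in all. Each of these 4 runs was under 20 reads after division and so outside the rule of size. Listing asked for 10 MeDIP reads over both libraries, so windows low in both could not form a run.

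The other runs were nearer to equality or lower in PLZFon. The run with the most reads, at chr4:101871001-101871600 and at no gene, had 150 PLZFon and 195 WT window reads, a ratio of 1.1 (0.696 to 1.71). Gm35900 had 117 and 213, a ratio of 0.782 (0.48 to 1.25), and Lrp1b, a lipoprotein receptor family gene, had 46 and 62, a ratio of 1.06 (0.448 to 2.42). Fam71e2 had 39 and 19, a ratio of 2.92 (0.888 to 11.3). The run in Peg10 and next to Sgce, both imprinted genes (chr6:4747501-4748000), had 5, 5 and 6 PLZFon reads and 7, 17 and 18 WT reads on 36 and 29 input reads in all, a ratio of 0.542 (0.125 to 1.85). All 5 intervals included equality.

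**Figure D5:**
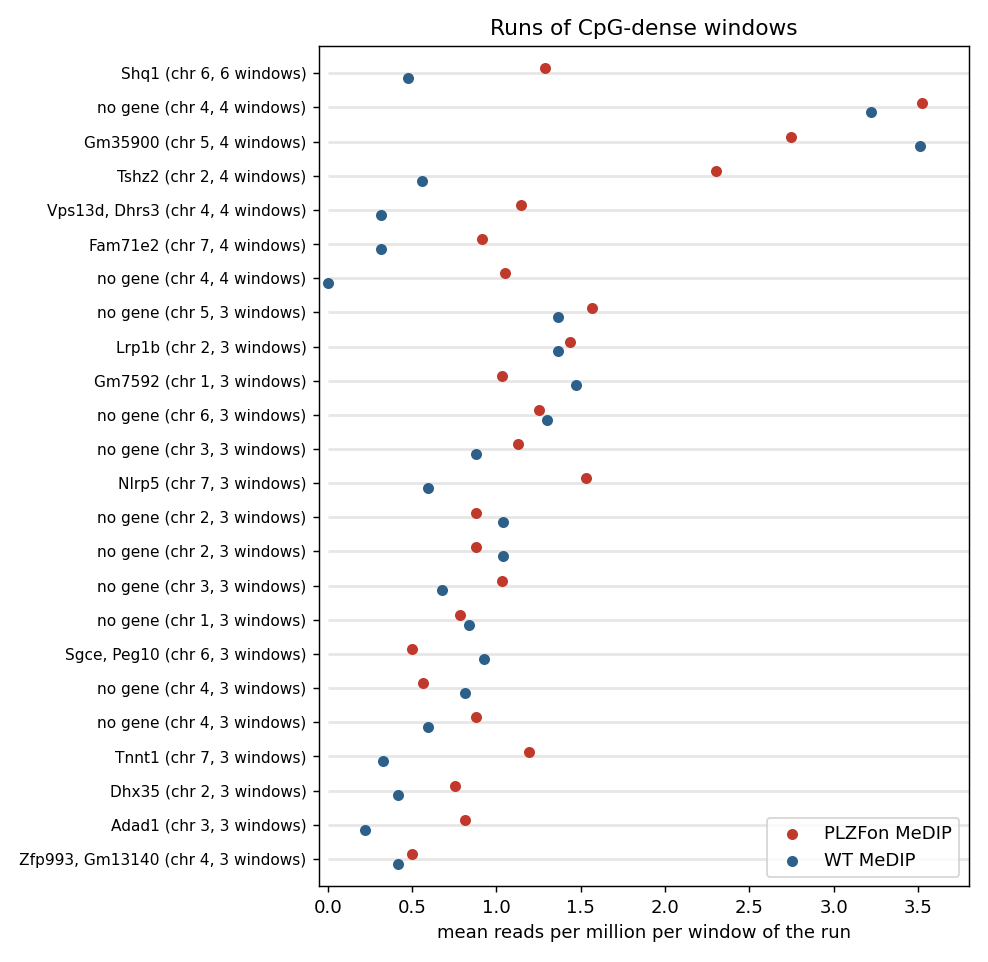
Mean depth-scaled MeDIP reads per window (reads per 1000000 library reads, x axis) of 24 of the 25 runs in PLZFon and WT, with the genes within 1000 bp, the chromosome and the number of windows on the y axis. PLZFon stands above WT in 16 of the runs drawn, among them Shq1, Tshz2 and Tnnt1, and below it in 8, among them Gm35900 and Sgce with Peg10. The run with 0 WT reads, at no gene on chromosome 4, was listed through its PLZFon reads alone.

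By gene, 754 of the 21427 genes in range (3.52%) held a CpG-dense window within the gene or 1000 bp on each side, and 607 of these (80.5%) held 1. Protein-coding genes did so in 498 of 9490 cases (5.25%). Windows shared by overlapping genes were counted for each. At least 4 windows were held by 21 genes, led by Hoxa3 with 8 and by Igk (the immunoglobulin kappa locus), Shq1 and Zfp993 with 6 each.

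The windows of Hoxa3 spread over the Hoxa cluster and stood below the 8.33 times in PLZFon and 8.67 times in WT of all CpG-dense windows. They had 87 PLZFon and 113 WT MeDIP reads on 140 and 132 input reads, a ratio of 1.1 (0.802 to 1.49), at 2.94 times the input in PLZFon and 3.43 in WT. Flg, the filaggrin gene of the epidermis, held 5 separate windows with 8, 11, 10, 11 and 8 PLZFon and 2, 7, 2, 2 and 3 WT MeDIP reads. Each Flg window was higher in PLZFon after scaling, at a summed ratio of 4.27 (2.38 to 8.06), with 83 PLZFon and 108 WT input reads. WT stood below its input in Flg, at 0.594 times, against 2.74 times in PLZFon. The Flg windows held 10 to 18 MeDIP reads over both libraries, near the 10 that listing asked for. Windows low in both libraries were not listed, so listing can shape the Flg ratio, and its part was not tested. At the other end, the 4 windows of the vomeronasal receptor gene Vmn2r35 had 254 PLZFon and 312 WT reads, 19.4 and 16.9 times the input. Celf2, an RNA-binding splicing regulator, had 117 PLZFon and 197 WT reads in 4 windows, at 23.1 and 18.4 times.

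Lists of genes were then counted against the share of all genes in range, 3.52% of which held a CpG-dense window. Gene length differs between lists, with a median of 40000 bp for imprinted, 27900 bp for germline and 6220 bp for all genes, and longer genes can hold more windows. None of these counts was tested.

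Imprinted genes held such windows in 10 of 34 cases (29.4%). They were Sgce and Peg10, which share a run, H13 with Mcts2 inside it, Herc3 with Nap1l5 inside it, and Gnas, Zdbf2, Mest and Ppp1r9a. Mcts2, a retrogene expressed from the paternal allele, had 5 and 13 PLZFon and 11 and 12 WT MeDIP reads in windows 297 bp before and 3 bp after its start. Mest had 7 PLZFon and 4 WT reads 298 bp from its start, and Nap1l5 had 3 and 7 at 275 bp. Gnas had 7 PLZFon and 3 WT reads on 16 and 19 input reads, and Zdbf2 had 15 and 22 on 13 and 14. The interval of the ratio included equality for every imprinted gene, with a median log2 ratio of -0.04 over 5 genes with at least 20 reads, against -0.06 over 418 of all genes.

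Germline genes held them in 6 of 37 cases (16.2%), namely Sycp1, Fkbp6, Nlrp5, Adad1, Catsper2 and Slco6b1. Slco6b1 had the strongest recovery, with 25 PLZFon and 53 WT MeDIP reads on 11 and 9 input reads, 10.8 and 23.6 times the input. Catsper2, a sperm calcium channel gene, had 3 PLZFon and 8 WT reads, and its input ratio was 4.22. The median log2 ratio was 1.07 over 4 genes with at least 20 reads. Their ratios were 2.58 in Nlrp5 (1.08 to 6.61), 3.7 in Adad1 (0.953 to 19.3), 1.71 in Fkbp6 (0.576 to 5.23) and 0.672 in Slco6b1 (0.4 to 1.1). The intervals of Adad1, Fkbp6 and Slco6b1 included equality. The Adad1 windows had 8, 10 and 8 PLZFon and 5, 2 and 3 WT reads. They were near the 10 reads that listing asked for, so listing can shape the Adad1 ratio, which was not tested. Of genes with a dense promoter window, a CpG-dense window lay within 1000 bp of the start in 2 of 11 germline, 2 of 8 imprinted and 1 of 7 Hox genes, against 22 of 2809 (0.783%) of all such genes.

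Hoxa and Hoxd genes held them in 4 of 22 cases (18.2%), all in the Hoxa cluster and sharing windows, at Hoxa3, Hoxa4, Hoxa5 and Hoxa6. Hoxa6 had 36 PLZFon and 63 WT MeDIP reads on 66 and 62 input reads (2.58 and 4.07 times the input). Their median log2 ratio was -0.08 over 4 genes. Developmental transcription factors of other lineages held them in 1 of 63 cases, Prdm16, with 7 PLZFon and 4 WT reads.

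T and NKT cell regulators held them in 3 of 35 cases (8.57%). Lck, the kinase next to the T cell receptor, had 15 PLZFon and 10 WT MeDIP reads on 7 and 5 input reads, a ratio of 2.14 (0.898 to 5.32). Hivep3, a zinc finger regulator, had 32 PLZFon and 47 WT reads in 2 windows (0.969, 0.599 to 1.55), and Zeb2, a transcription factor of late lymphocyte differentiation, had 6 and 9. Among PLZF partners, acetylation enzymes and Polycomb genes, 2 of 11 held them. The Polycomb gene Bmi1 had 10 PLZFon and 5 WT reads on 15 and 8 input reads, a ratio of 2.85 (0.887 to 10.6). Housekeeping genes held such windows in 0 of 23 cases, DNA methylation enzymes and readers in 0 of 6, B cell genes in 0 of 10 and myeloid genes in 0 of 13.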

How the data were processed

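MeDIP and input DNA of sorted thymic NKT cells was sequenced in 4 libraries, 1 for each of PLZFon MeDIP, WT MeDIP, PLZFon input and WT input, grouped by their titles. Per the labels' protocols, genomic DNA was sonicated to a median fragment length of 180 to 230 bp. BWA, edgeR and the build mm10 are named in the submitters' processing notes. In the deposited table each 100 bp window has raw read counts, with RPKM values that the authors computed from them. The authors' table adds a CpG factor, a relative methylation score, log2 fold changes and p-values, raw and adjusted. The CpG factor equalled the number of CpG in all 2531 listed windows inside promoter sequences.

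Library totals were recovered from counts and RPKM and were used for scaling. Each ratio sets the share of PLZFon reads against that of WT and carries a Clopper-Pearson 95% interval. MeDIP over input was computed likewise within a genotype. The intervals leave out variation from PCR and between animals. Sums and ratios over the CpG-dense windows used the reads of every window, and for their intervals windows within 400 bp were counted once. For intervals over the other listed windows, reads were divided by 4. That number was taken because squared differences between input windows 4 apart were already 0.965 (PLZFon) and 0.947 (WT) of those 8 apart. In MeDIP they were 0.897 and 0.88, so the number is less certain there. Genes, with 1000 bp on each side, and promoters were those of RefSeq (GRCm38.p6). Start sites were taken from the promoter sequences alone, so genes without one had no start site here. The members, the 10 gene lists (398 symbols), the motifs and the rules were chosen with earlier results of these data known. Named were windows and genes with the most windows, the highest and lowest ratios, the highest factor or the most reads, up to 4 genes of each list, and windows at 0 in a library. Windows near start sites, Crlf2, Cep85, Galk2, Kcnip4, Zfp787, Gli2 and further list members were named after their values were seen. Values of 2 genes are not reported here.

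Alternatives were other bounds on the factor and the input, TMM factors, median-of-ratios factors, scaling within factor classes, and other bounds on reads, ratio, runs and gene flanks. Added after seeing the data were the mean per window of a run, windows with at least 20 reads, windows with similar inputs and a factor of at least 14. Python 3.11.15, pandas 2.3.3, SciPy 1.17.1 and, for TMM factors, edgeR 4.0.16 in R 4.3.3 were used.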

Additional observations from a re-analysis of the deposited data

How the results depend on the processing

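Of 96 values recomputed under 21 settings, 48 kept their size, 44 moved and 4 changed direction. All 4 were the PLZFon over WT ratio of 0.954 over the 1699 windows, which was 1.06 with a factor of at least 12, 1.42 with at least 14, 1.01 with no input limit and 1.01 with median-of-ratios scaling. It moved to 0.989 with TMM factors, 0.929 with a factor of at least 8, 0.921 with at least 20 reads and 0.933 in the 1081 windows with similar inputs. Scaling within factor classes gave 0.965.

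MeDIP over input, 8.33 in PLZFon and 8.67 in WT, was 7.92 and 8.52 with a factor of at least 8, 6.59 and 6.46 with at least 12, 6.37 and 6.77 with no input limit, 2.16 and 2.19 with TMM factors, and 2.15 and 2.16 with median-of-ratios scaling. The 1699 windows numbered 7990 with a factor of at least 8 and 348 with at least 12.

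The 19 higher and 14 lower windows were 49 and 98 with a factor of at least 8, 7 and 2 with at least 12, 2 and 9 with at least 40 reads, and 5 and 9 with similar inputs. The higher ones were 87 with no input limit and 72 with at least 10 reads. The lower ones were 39 at a ratio of at least 1.5 and 3 at a ratio of at least 3. The 2 higher runs were 4 with a factor of at least 8, 1 with at least 12, 12 with no input limit, 6 with at least 10 reads, 0 with at least 40 reads, 1 at a ratio of at least 3, 4 with sums divided by 3, and 1 for runs of at least 5 windows. The 17 genes with runs were 105 with a factor of at least 8, 6 with at least 12, 27 with no input limit, 9 for runs without gaps, 1 for runs of at least 5 windows, and 26 with 5000 bp on each side. The share of windows at a gene, 50.0%, was 46.4% for the gene alone and 58.6% with 5000 bp. The cause of these moves was not tested, other than the fewer or more windows and reads that each setting keeps by construction.

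No paired analysis was possible because each group had 1 library. A window with the median of 12 PLZFon and 18 WT reads is too shallow to set a 2-fold difference apart from equality, so that windows outside the rule of size are not shown to be equal.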

Other observations

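Gene families differed in how often their members held a CpG-dense window. The share was 3.52% of all genes in range and 5.25% of protein-coding genes. Longer genes can hold more windows, and gene length was not taken into account here. Zinc finger genes with symbols beginning with Zfp held one in 17 of 198 cases (8.59%). Vomeronasal receptor genes did so in 5 of 424 (1.18%), olfactory receptor genes (Olfr) in 0 of 754 and killer cell lectin-like receptor genes (Klr) in 0 of 31. Of 20 Ugt genes, 8 were counted, all through 1 window at Dnajb3 that the overlapping Ugt1a genes share.

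Several zinc finger genes had windows with 1 or 2 WT MeDIP reads, under the read minimum of the rule of size. They were listed through their PLZFon reads, since windows low in both libraries were not listed. Zfp865 had 8 and 12 PLZFon reads and 2 and 2 WT reads in 2 windows on 15 and 15 PLZFon and 16 and 17 WT input reads. Zfp467 had 8 and 8 PLZFon and 2 and 2 WT reads, and Zfp787 had 13 and 17 PLZFon and 2 and 1 WT reads. Windows of Zfp978 lay at equality, the first with 56 PLZFon and 86 WT reads (0.927, 0.65 to 1.31). All these windows were named after their values were seen, and no difference between zinc finger genes and other genes was tested.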
